A study of Mus musculus with 26 samples.

Results

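Lungs of mice given the high dose of the multiwalled carbon nanotube NM-401 were compared with lungs given the low dose. The high dose was 128 µg per mouse and the low dose 42.7 µg per mouse, a ratio of 3, and the labels do not say whether this is per instillation or in total. Members were chosen by title alone, as the arrays of the high-dose animals 1 to 5 and of the low-dose animals 1 to 5, so 10 of the 26 arrays in the series, 1 array per animal. All were MutaMouse animals, a transgenic strain carrying a reporter for mutations, about 12 weeks old at the start and labelled female, although the series design calls the mice male. The nanotubes were suspended in mouse serum and instilled into the trachea once a week for 4 weeks, and lungs were taken 56 days after the last dose. The 5 control animals of the same strain serve only as a background level. The design calls them vehicle controls, whereas the treatment text has them gavaged with olive oil, so what they received is not settled. The study also tested a second nanotube, Mitsui XNRi-7, at the same doses. Each value is the log2 ratio of an animal's whole-lung RNA, labelled with Cy5, over a universal mouse reference RNA labelled with Cy3. In this text 0 means a level equal to the reference, and a log2 difference of 1 is a 2-fold change.

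Multiwalled carbon nanotubes are stiff, fibre-like particles that the lung clears slowly. Alveolar macrophages take up what reaches the air spaces, hold it in lysosomes and release chemokines that draw in monocytes, and long or rigid fibres that cannot be enclosed keep this response going. Lasting particle loads in rodent lung are known for lipid-filled macrophages, mucous change of the airway lining, collagen deposition and, for some fibres, damage to DNA, which is what the series title is about.

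The groups differed in where their arrays lay. High-dose arrays were in columns 1 and 2 of the slides and low-dose arrays in columns 2, 3 and 4, so only column 2 held both doses, with high animals 1 and 3 and low animal 2. The share of probes well above background in Cy5 was 52.2% to 63.2% on the high-dose arrays and 51.1% to 61.5% on the low-dose arrays, and the number of animals limits the precision. High animal 2 stood apart from its sex label: both Xist probes were not well above background in it, at -3.04 and -1.41, against 0.41 to 0.93 in the other high-dose animals. The Y genes Ddx3y and Kdm5d were not well above background in any of the 10, Uty was in 1 that was not high animal 2, and Eif2s3y was in 8, high animal 2 among them. Counts are therefore also given without high animal 2. On the first principal component over these 10 animals and the 5 controls, which held 45.9% of the variance, controls lay at -44.4 to -34.5, low-dose animals at -4.19 to 15.4 and high-dose animals at 18.3 to 41.8. The 3 groups did not overlap on it.

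Of 22950 features tested by limma over all 25 animals of the study, 868 (3.78%) were called at a Benjamini-Hochberg adjusted p under 0.05, 608 (2.65%) higher and 260 (1.13%) lower at the high dose. At least a 1.5-fold change was reached by 217 (0.946%) of the higher and 59 (0.257%) of the lower ones. The median change over all features was 0.0010. In 840 features (3.66%) the 5 high-dose and 5 low-dose values did not overlap, and 442 of these were among the called. Without high animal 2 the test called 816 (3.56%) higher and 413 (1.8%) lower, including 804 of the 868.

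The calls depended on the terms of the fit and on single animals. Most arrays of each dose lay in columns without the other dose, so dose and array column cannot be fully told apart. With array column as a term, 0 features were called by limma (smallest adjusted p = 0.0503), and 3309 (14.4%) passed an unadjusted p under 0.05 against 4197 (18.3%) without the term. All 868 kept their sign there, their median absolute change was 0.49 against 0.48, 865 passed an unadjusted p under 0.05, and the median standard error over all features was 0.118 against 0.0951. The 868 had been chosen from these same animals, so their sign, size and unadjusted p there are no independent check on the column. When only the 10 NM-401 animals were fitted, 0 features were called and 3705 passed an unadjusted p under 0.05. Leaving out low animal 1, low animal 4, high animal 3 or high animal 5 cut the count to 233, 182, 303 and 206 by limma. The rule for naming genes picked 92 called genes. Of these, 35 were called whichever of the 10 animals was left out, none changed sign and none moved by over 1.5 times. The loss of a call is marked below for only part of the rest. Pgk1 kept its call in 2 of the 10 fits, Il7r, Steap1, Sprr1a and Nfil3 in 4, and Ccl3 in 5. The verbs rose and fell below refer to the fit of all 25 animals. Counts of calls in a list stand beside 3.78% of all features called, 2.65% higher and 1.13% lower.

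**Figure D1:**
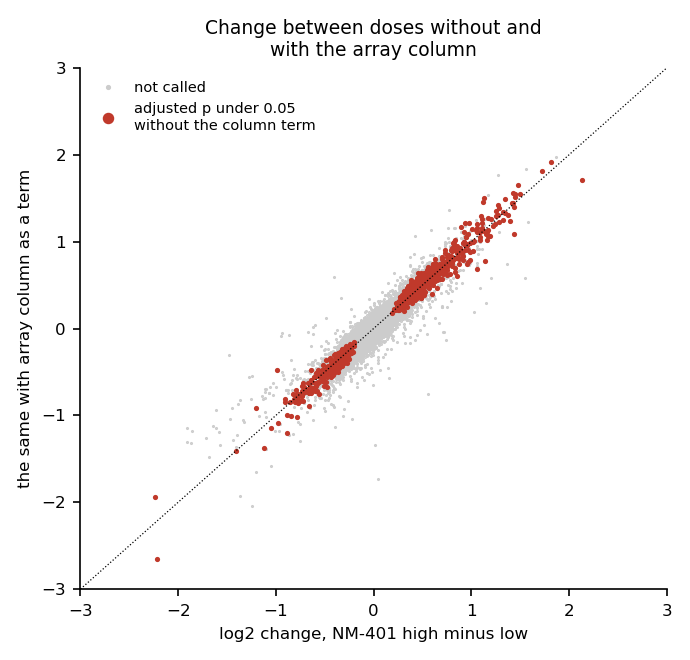
Change between doses (log2, high minus low) of 22950 features without the array column (x axis) and with it as a term (y axis); red points are the 868 called without it, grey points the rest. The red points follow the dotted line of equality, and all 868 keep their sign, but both fits use the animals from which the 868 were chosen.

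The macrophage genes of lysosomes and lipid handling held the most calls of any list. The test called 16 of the 31 measured members higher and 0 lower, the list median was 0.60, and without high animal 2 the test called 21 of the 31 higher. Gpnmb, a membrane glycoprotein of lysosome-rich macrophages, was 3.30-fold higher (95% interval 2.01 to 5.42, adjusted p = 0.00983). Its log2 ratios were 3.25, 1.68, 2.78, 2.39 and 3.09 in the high-dose animals and 0.034, 1.64, 1.17, -0.036 and 1.78 in the low-dose animals, listed from animal 1 to animal 5 here and below, and the controls were at -2.41 ± 0.36 (SD, n = 5). High animal 2 was the only high-dose animal that did not exceed all low-dose animals. Spp1, which encodes osteopontin, was 3.52-fold higher (95% interval 1.99 to 6.21, adjusted p = 0.0143). It stood at 1.84, 1.07, 0.66, 0.57 and 1.51 in the high-dose animals and -1.03, 0.79, -0.42, -2.52 and -0.23 in the low-dose animals, against -3.61 ± 0.40 in controls. Low animal 4 was far below the other low-dose animals and low animal 2 reached into the high-dose range. Spp1 lost its call when 1 animal was left out (adjusted p = 0.0519 without high animal 5), while Gpnmb kept it in all 10 such fits.

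**Figure D2:**
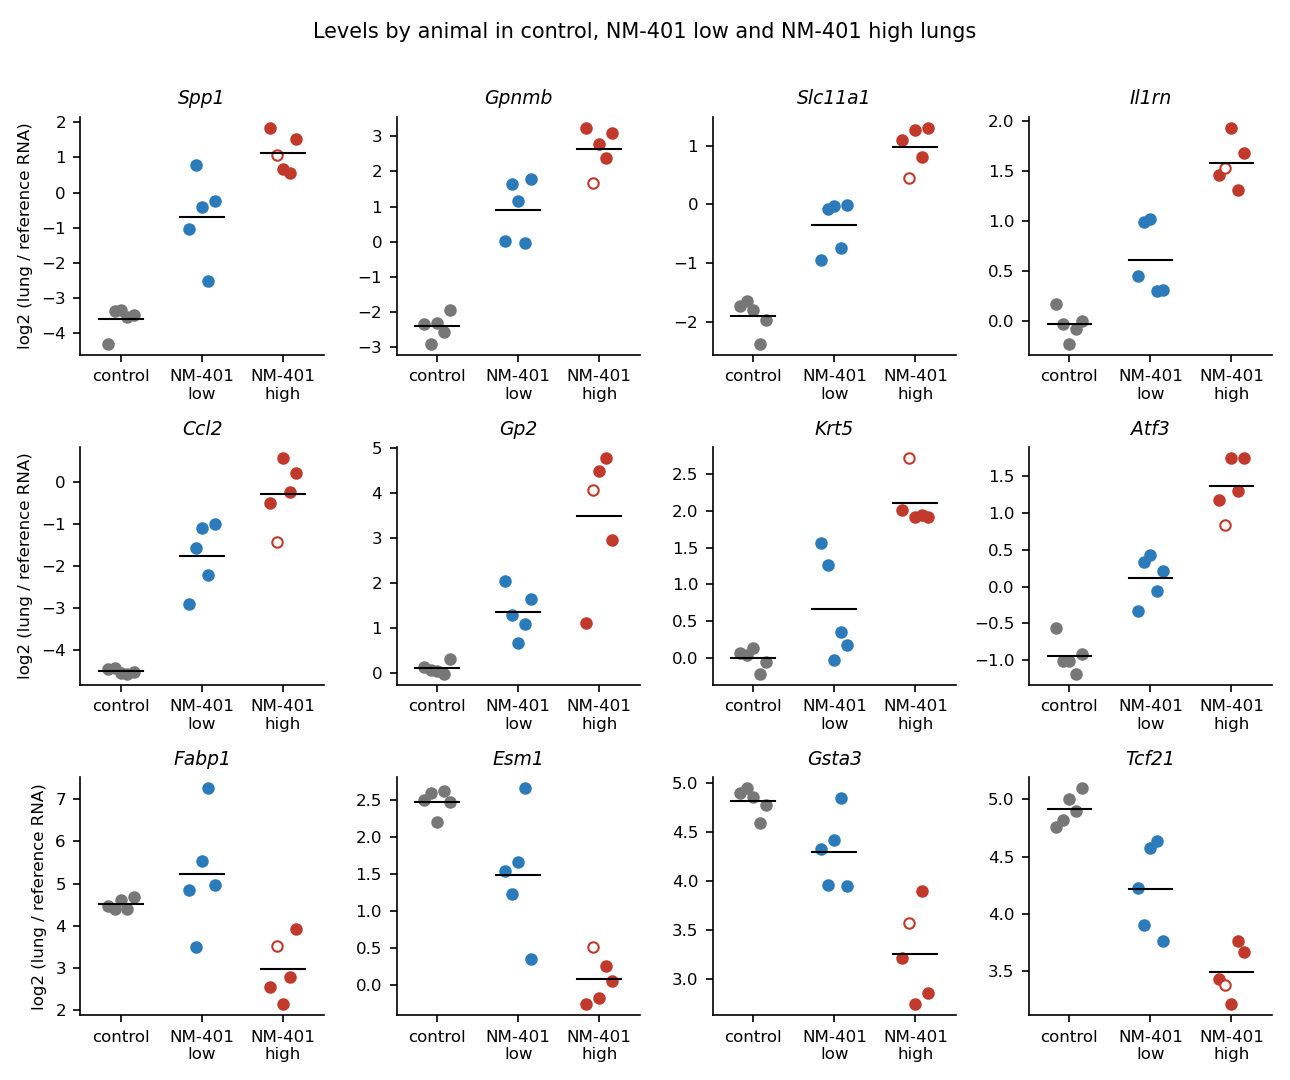
Log2 ratio of lung over reference RNA (y axis) for 12 genes in the 5 control, 5 NM-401 low and 5 NM-401 high animals (x axis); points are animals, black bars group means, and the open point is high animal 2. In 8 of the genes the high dose lies farther from the control than the low dose on the higher side and in Esm1, Gsta3 and Tcf21 on the lower side, while Fabp1 is higher in 4 of 5 low-dose animals than in any control or high-dose animal.

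Enzymes of the lysosome shared this rise. The cysteine proteases Ctsl and Ctsb changed by 1.06 ± 0.19 (SE) and 1.11 ± 0.24, with Ctsl at 0.026, -0.53, 0.098, 0.0028 and 0.37 in the high-dose animals and -1.50, -0.83, -0.69, -1.36 and -0.95 in the low-dose animals and no overlap between the doses. Lpl, the lipoprotein lipase, rose by 1.06 ± 0.21 (adjusted p = 0.00768), Lgals3, which encodes galectin-3, by 0.92 ± 0.18 (adjusted p = 0.00751), and in neither did the groups overlap. Trem2, a lipid-sensing receptor, rose by 1.17 ± 0.29, the macrophage elastase gene Mmp12 by 1.17 ± 0.26 and the fatty acid carrier Fabp5 by 0.93 ± 0.21. Smaller rises were seen for Atp6v0d2, a subunit of the lysosomal proton pump, at 0.72, for Plin2, a coat protein of lipid droplets, at 0.73, and for the cholesterol carrier Npc2, progranulin (Grn), lysosomal acid lipase (Lipa) and the tetraspanin Cd63, at 0.48 to 0.57. The proteases Ctss and Ctsd, at 0.92 and 0.73, were not called. The list mean, taken relative to the control mean, was 2.11, 1.52, 1.94, 1.79 and 2.12 in high-dose animals and 0.92, 1.57, 1.41, 0.80 and 1.37 in low-dose animals. High animal 2 was the lowest of its group and fell below low animal 2. Gusb, the lysosomal beta-glucuronidase that is often used as a reference gene, also rose, by 0.88 ± 0.17 with no overlap, at 0.91, 0.05, 0.44, 0.27 and 0.71 in the high-dose animals and -0.77, -0.032, -0.28, -0.85 and -0.078 in the low-dose animals.

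Further genes with large rises were Slc11a1, Hk3, Lilr4b, Fam20c, Prss46 and Sfrp5. Slc11a1, a metal transporter of the phagosome membrane, was 2.54-fold higher (95% interval 1.88 to 3.44, adjusted p = 0.00305) and did not overlap, at 1.10, 0.44, 1.27, 0.82 and 1.31 in the high-dose animals and -0.94, -0.079, -0.023, -0.75 and -0.0012 in the low-dose animals. All 5 low-dose animals lay between the controls (-1.91 ± 0.29) and the high-dose animals. Hk3, the hexokinase of leukocytes, was 2.74-fold higher (95% interval 1.95 to 3.85, adjusted p = 0.00316 by limma). Lilr4b, a receptor of myeloid cells, was 2.69-fold higher (95% interval 1.85 to 3.92, adjusted p = 0.00654 by limma). Fam20c, the kinase of secreted proteins such as osteopontin, was 2.67-fold higher (95% interval 1.91 to 3.72, adjusted p = 0.00316 by limma). A second Fam20c probe had a log2 change of 0.84, against 1.41 for the probe used. Hk3 stood at 2.03, 1.09, 2.42, 1.81 and 2.13 in the high-dose animals and -0.047, 0.82, 0.78, -0.10 and 0.77 in the low-dose animals. In Hk3, Lilr4b and Fam20c the 2 doses did not overlap, and these genes and Slc11a1 kept their call whichever animal was left out. The protease gene Prss46, not well above background in any control, rose by 1.43 ± 0.23, and the secreted Wnt antagonist gene Sfrp5 by 1.40 ± 0.29.

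Markers of macrophages and monocytes rose in 5 of 19 measured genes and fell in 0, with a median of 0.32. They included Ms4a7 (1.28 ± 0.32), the scavenger receptor Msr1 (1.20 ± 0.30) and the Fc and immune receptor adaptors Fcer1g (0.76 ± 0.18) and Tyrobp (0.72 ± 0.20). The list mean was 1.12 to 1.46 above control in high-dose and 0.60 to 1.06 in low-dose animals, which did not overlap. Genes of resident alveolar macrophages went no such way: 1 of 17 rose, 0 fell, and the median was -0.20, or -0.30 with array column as a term. The one that rose was Bhlhe40, a transcription factor, at 0.56 ± 0.12. Fabp4 (1.11 ± 0.68), Ear1 (-0.74 ± 0.26) and Krt79 (-0.86 ± 0.53) were not called. RNA came from sections of whole lung, so more cells of a type and more RNA per cell cannot be told apart.

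Markers of other leukocytes were called at about the rate of all features (3.78%). Among neutrophil genes 1 of 18 rose, Clec4e, a receptor also made by macrophages, by 1.09 ± 0.19 with no overlap between doses, and the list median was 0.081, with a median of -0.071 when array column was a term. T and natural killer cell genes had 1 of 29 called, the interleukin 7 receptor Il7r at 1.05 ± 0.28, and a median of 0.20. In B and plasma cell genes 0 of 21 were called and the median was 0.024. Of 9 measured genes of MHC class II presentation 1 rose, the lysosomal thiol reductase Ifi30, by 0.52 ± 0.12.

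Inflammatory messengers rose in part. Of 27 chemokine ligands 2 rose and 1 fell, with a median of 0.27. Ccl2, which attracts monocytes, was 2.79-fold higher (95% interval 1.63 to 4.78, adjusted p = 0.028), at -0.51, -1.44, 0.58, -0.23 and 0.21 in the high-dose animals and -2.90, -1.57, -1.09, -2.21 and -1.01 in the low-dose animals, against -4.52 ± 0.059 in controls. The groups met because high animal 2 was below low animals 3 and 5, and Ccl2 lost its call without single animals (largest adjusted p = 0.106 without low animal 1). Ccl3 rose by 0.95 ± 0.25 and did not overlap, while Cx3cl1, the membrane-bound chemokine fractalkine, fell by 0.54 ± 0.12. Ccl7 (1.28 ± 0.43, adjusted p = 0.0978) and Ccl4 (1.14 ± 0.34, adjusted p = 0.0605) did not pass. Among 25 cytokines, receptors and innate sensors 5 rose and 0 fell: the interleukin 1 receptor antagonist Il1rn (0.97 ± 0.15), Il6 (0.82 ± 0.21), the shared beta chain of the GM-CSF receptor Csf2rb (0.81 ± 0.14), Tnf (0.58 ± 0.13) and Tlr2 (0.57 ± 0.13). Of these only Il6 overlapped between the doses. Il1rn stood at 1.46, 1.54, 1.93, 1.31 and 1.68 in the high-dose animals and 0.45, 0.99, 1.02, 0.30 and 0.31 in the low-dose animals. The lowest high-dose animal was 1.31, above the highest low-dose animal at 1.02.

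The next lists held a single call each, a share near the 3.78% of all features. Il33, an epithelial alarmin, was the 1 of 21 type 2 response genes that rose, by 0.85 ± 0.20 with no overlap. C3ar1, the receptor for complement fragment C3a, was the 1 of 25 complement genes, by 1.13 ± 0.21. Orm2, an acute phase glycoprotein, was the 1 of 19 acute phase genes, by 1.13 ± 0.32, and lost its call without single animals (largest adjusted p = 0.15 without high animal 5). Saa3, the serum amyloid made in lung, stood at 0.52, 0.76, 2.98, 0.55 and 1.53 in the high-dose animals and -1.01, 0.62, -0.48, -0.79 and 0.18 in the low-dose animals, with a change of 1.56 ± 0.46 that missed the threshold (adjusted p = 0.0584). High animal 3 was far above the other animals of its dose.

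Interferon-stimulated genes spread widely among the animals of each dose. None of 37 measured members was called by limma, although the list median was 0.32, or 0.52 with array column as a term, and without high animal 2 the median was 0.68 with 0 called. The list mean relative to control was 0.85, 0.22, 2.52, 2.23 and 1.97 in high-dose and 0.30, 0.26, 1.82, 1.69 and 1.90 in low-dose animals. At both doses animals 3, 4 and 5 were high, and low animals 1 and 2 and high animal 2 were near the controls, which lay at -0.18 to 0.21. High animal 1 was in between. Low animals 1 and 2 were on slide 2, high animal 1 on slide 3 and high animal 2 on slide 1, where low animal 4 and high animal 3 were high. Low animal 5, which was high, shared slide 3 with high animal 1. Isg15, a ubiquitin-like protein, showed it gene by gene, at 1.01, -0.38, 3.41, 2.88 and 2.58 in the high-dose animals and -0.14, 0.11, 2.16, 2.35 and 3.02 in the low-dose animals, and Ifit1, a sensor of foreign RNA, at 0.58, -0.29, 2.78, 2.67 and 2.06 in the high-dose animals and 0.001, -0.18, 1.93, 1.76 and 2.41 in the low-dose animals. Their changes between doses were 0.40 ± 0.65 and 0.37 ± 0.55 (SE). The promoters of both genes carry the response element through which interferon signals reach them, and they are shown for that. The 250 bases before the start are from RefSeq on GRCm38.p6, with each match to GAAA, any 2 bases and GAAA again, on either strand, in capitals. Matches overlap in Isg15.
Isg15 (chr4:156200819-156201068, minus strand): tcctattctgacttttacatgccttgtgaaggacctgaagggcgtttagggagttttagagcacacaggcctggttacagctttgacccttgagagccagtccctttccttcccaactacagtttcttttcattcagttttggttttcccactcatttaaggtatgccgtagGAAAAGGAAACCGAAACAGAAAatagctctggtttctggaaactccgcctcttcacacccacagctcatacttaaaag
Ifit1 (chr19:34640639-34640888, plus strand): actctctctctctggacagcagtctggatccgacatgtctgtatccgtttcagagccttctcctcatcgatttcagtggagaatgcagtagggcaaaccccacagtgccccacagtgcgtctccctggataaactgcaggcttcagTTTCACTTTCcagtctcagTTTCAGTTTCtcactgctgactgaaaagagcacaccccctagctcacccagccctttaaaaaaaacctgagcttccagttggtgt
Of the 37 measured members 29 had a promoter entry under their symbol, and 14 of the 29 held the letters, against 3.46% of all 27025 genes and 2.98% of all 32851 windows of the same 250 bases. A match is a description and no evidence of use.

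Genes of endoplasmic reticulum stress, whose products fold, modify or dispose of proteins in the secretory pathway, were higher at the high dose in part. The test called 6 of 20 higher and 0 lower, and the median was 0.24. The folding factor gene Sdf2l1 rose by 0.58 ± 0.11, the secreted stress protein gene Manf by 0.47 ± 0.081, the degradation factor gene Edem1 by 0.39 ± 0.083, the chaperone gene Hspa5 (BiP) by 0.37 ± 0.074, Creld2 by 0.30 ± 0.077 and the transcription factor gene Xbp1 by 0.26 ± 0.062. The changes were small, and the animals of a dose lay close together. Hspa5 stood at 0.53, 0.55, 0.53, 0.64 and 0.50 in the high-dose animals and -0.031, 0.28, 0.16, 0.15 and 0.32 in the low-dose animals, with controls at 0.097 ± 0.09. Manf stood at -0.29, -0.01, -0.088, -0.25 and -0.30 in the high-dose animals and -0.73, -0.54, -0.60, -0.69 and -0.72 in the low-dose animals, with controls at -0.62 ± 0.055. The low dose lay near the controls in both, and all high-dose animals were above all low-dose animals. The list mean was 0.19 to 0.25 above control in high-dose, -0.11 to 0.059 in low-dose and -0.086 to 0.036 in control animals. Sdf2l1, Manf and Hspa5 kept their call whichever animal was left out, and without high animal 2 the test called 5 of the 20.

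**Figure D3:**
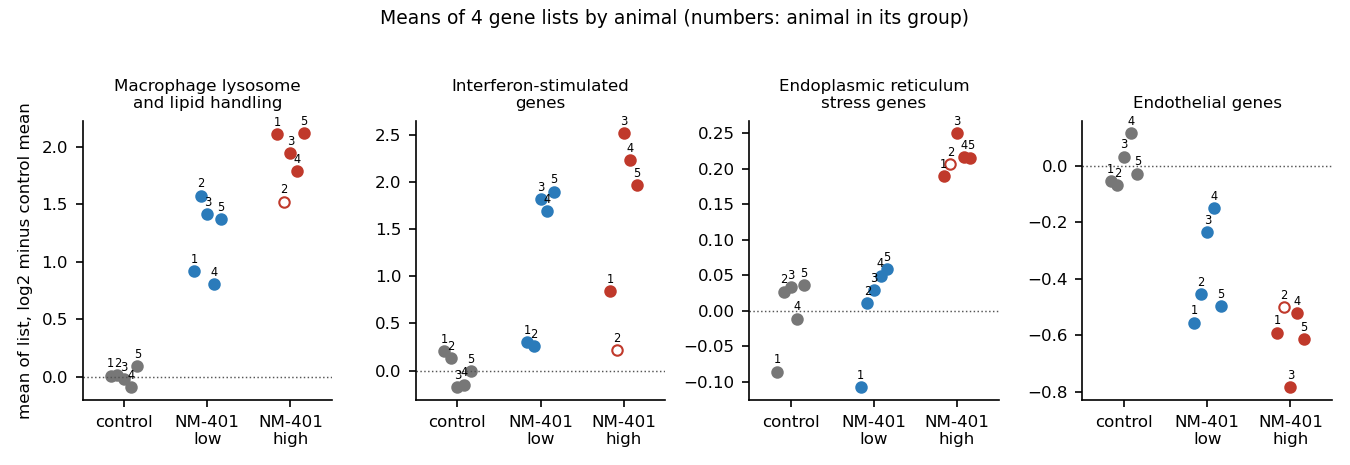
Mean of each of 4 gene lists by animal (y axis, log2 relative to the mean of the 5 controls) in control, NM-401 low and NM-401 high lungs (x axis); numbers are the animals of each group and the open point is high animal 2. Endoplasmic reticulum stress genes separate the doses. Interferon-stimulated genes are high in animals 3 to 5 of each dose and lower in the others, with high animal 1 in between. The numbers do not pair animals across groups.

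The endoplasmic reticulum stress element is the promoter sequence known to bind the factors of this response. Spelled CCAAT, any 9 bases and CCACG, and searched on both strands of the same 250 bases, it was found in 0.113% of all windows and 0.13% of all genes. Of the 18 list members with a promoter entry 6 held it: Hspa5 and Creld2, which rose, and Pdia6 (0.24 ± 0.07), Calr (0.27 ± 0.12), Hsp90b1 (0.083 ± 0.077) and Dnajc3 (0.054 ± 0.095), which were not called. The other 3 called members with an entry, Sdf2l1, Edem1 and Xbp1, did not hold these letters. The promoters of Hspa5, Creld2 and, as a member with 2 matches and no call, Hsp90b1 are given with the element in capitals.
Hspa5 (chr2:34771840-34772089, plus strand): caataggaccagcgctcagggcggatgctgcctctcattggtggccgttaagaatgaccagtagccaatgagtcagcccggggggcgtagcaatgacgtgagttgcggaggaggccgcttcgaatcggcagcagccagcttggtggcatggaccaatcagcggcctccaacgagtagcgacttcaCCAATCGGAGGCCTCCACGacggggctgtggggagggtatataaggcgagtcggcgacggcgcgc
Creld2 (chr15:88819396-88819645, plus strand): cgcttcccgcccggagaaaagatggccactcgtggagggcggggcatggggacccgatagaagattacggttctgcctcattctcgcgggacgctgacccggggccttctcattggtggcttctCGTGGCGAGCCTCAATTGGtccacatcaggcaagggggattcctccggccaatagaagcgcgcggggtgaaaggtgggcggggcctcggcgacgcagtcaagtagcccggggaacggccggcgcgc
Hsp90b1 (chr10:86705445-86705694, minus strand): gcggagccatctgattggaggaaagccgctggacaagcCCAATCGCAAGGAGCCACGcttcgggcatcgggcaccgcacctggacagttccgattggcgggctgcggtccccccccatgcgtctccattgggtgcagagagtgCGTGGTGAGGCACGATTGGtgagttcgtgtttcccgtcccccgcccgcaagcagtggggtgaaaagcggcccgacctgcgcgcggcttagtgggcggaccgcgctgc
In Hspa5 the match lies 65 to 47 bases before the start and in Creld2, on the opposite strand, 126 to 108 bases before it.

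Genes of the response to oxidants and metals moved in both directions. Of 36 NRF2 targets and antioxidant enzymes 4 rose and 3 fell, with a median of 0.037. Those that rose were Hmox1, which degrades haem (0.70 ± 0.12), the peroxidase genes Prdx1 (0.52 ± 0.13) and Gpx1 (0.45 ± 0.095) and the sulfiredoxin gene Srxn1 (0.42 ± 0.095). Those that fell were the glutathione transferase gene Gsta3 (-1.05 ± 0.19), the quinone reductase gene Nqo1 (-0.38 ± 0.086) and Prdx6 (-0.35 ± 0.079). A second Hmox1 probe changed by 0.43, and further Prdx6 probes by -0.054, -0.26 and -0.28. Hmox1 stood at 0.0025, -0.19, 0.31, -0.43 and 0.089 in the high-dose animals and -0.94, -0.56, -0.64, -0.93 and -0.67 in the low-dose animals and Gsta3 at 3.21, 3.57, 2.74, 3.89 and 2.86 in the high-dose animals and 4.33, 3.96, 4.42, 4.85 and 3.95 in the low-dose animals. Neither overlapped, and every control of Gsta3, at 4.82 ± 0.14 on average, was above all exposed animals other than low animal 4. Among 16 genes of metal and iron handling 3 rose: Slc11a1, the iron store subunit gene Fth1 (0.39 ± 0.10) and the metalloreductase gene Steap1 (0.49 ± 0.13). In the immediate early and heat shock list 2 of 23 rose and 3 fell. The stress-induced transcription factor gene Atf3 was 2.36-fold higher (95% interval 1.78 to 3.13, adjusted p = 0.00305), at 1.17, 0.84, 1.74, 1.30 and 1.74 in the high-dose animals and -0.33, 0.33, 0.43, -0.057 and 0.21 in the low-dose animals with no overlap, and Egr2 rose by 0.59 ± 0.15. Klf4 (-0.74 ± 0.14), Klf2 (-0.66 ± 0.16) and Jun (-0.59 ± 0.15) fell.

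Lists bearing on DNA damage and growth held few calls, close to or below the 3.78% background of all features. Of 52 genes of DNA repair and damage signalling 1 rose, the DNA break sensor Parp1 (0.31 ± 0.084), and 1 fell, Rad50, of the complex that holds broken ends (-0.30 ± 0.081), and the median was 0.004. Both lost their call without single animals (Parp1 adjusted p = 0.126 without high animal 5, Rad50 adjusted p = 0.125 without low animal 4). Of 27 p53 targets 1 rose, the translesion polymerase gene Polk, by 0.47 ± 0.10. It stood at 0.1, 0.28, 0.048, 0.24 and 0.073 in the high-dose animals and -0.21, -0.28, -0.46, -0.59 and -0.08 in the low-dose animals, so low-dose animals lay around or below the control mean (-0.16 ± 0.25) and all high-dose animals above it. A second Polk probe changed by 0.10, and the mean over both probes by 0.29. None of 37 mitotic and S-phase genes was called by limma, and their median was 0.15.

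Genes used as markers of mucous and basal cells of the airway lining gave some of the largest rises, in RNA of whole lung. Of 18 goblet and mucous cell genes 2 rose, against 2.65% of all features. The list median was 0.51, or 0.19 with array column as a term and 0.30 without high animal 2. Gp2, a membrane glycoprotein of secretory cells, was 4.39-fold higher (95% interval 2.13 to 9.04, adjusted p = 0.0207). It stood at 1.13, 4.08, 4.49, 4.78 and 2.95 in the high-dose animals and 2.05, 1.30, 0.67, 1.10 and 1.65 in the low-dose animals and was not well above background in any control. High animal 1 lay within the low-dose range and the other 4 high-dose animals above it. Gp2 lost its call without single animals (largest adjusted p = 0.0707 without high animal 3), and on slide 3, which held high animal 1 and low animal 5, its difference was -0.52. The trefoil factor gene Tff1 rose by 0.91 ± 0.19. The mucosal scavenger receptor gene Dmbt1 was 2.70-fold higher (95% interval 1.66 to 4.39, adjusted p = 0.0208), at 1.18, 2.60, 2.97, 3.23 and 2.54 in the high-dose animals and 1.64, 1.40, 0.40, 1.12 and 0.79 in the low-dose animals, and with the scanner software's own log ratios its difference was -0.068.

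The basal cell keratins rose with a single animal standing out. Krt5 was 2.71-fold higher (95% interval 1.69 to 4.34, adjusted p = 0.0182), at 2.00, 2.72, 1.92, 1.94 and 1.92 in the high-dose animals and 1.56, 1.26, -0.029, 0.36 and 0.17 in the low-dose animals. Krt14 was 2.83-fold higher (95% interval 1.72 to 4.64, adjusted p = 0.0187), at -0.18, 2.16, 0.15, 0.27 and -0.047 in the high-dose animals and -0.71, -0.99, -1.38, -1.10 and -0.97 in the low-dose animals. High animal 2, the animal that went against its sex label, was the highest in both, and the doses did not overlap with or without it. The same held for Serpinb5, an epithelial serpin (1.45 ± 0.34), where high animal 2 was 3.33 and the next 1.52. Aqp3, a water channel of basal cells, rose by 1.38 ± 0.37 and without high animal 2 was not called (adjusted p = 0.0683 by limma). It kept its call in 5 of the 10 fits with an animal left out (largest adjusted p = 0.1125 by limma without low animal 4). Without high animal 2 the changes were 1.28 for Krt5, 1.08 for Krt14 and 1.02 for Serpinb5, each still called (adjusted p = 0.0316, 0.0212 and 0.0248). Among genes of the transitional state that alveolar cells pass through in repair 2 of 16 rose, against 2.65% of all features. They were Sfn (0.49 ± 0.11, no overlap) and Sprr1a (0.62 ± 0.17).

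Some matrix genes rose, by small amounts. Of 44 genes of the extracellular matrix and its remodelling 6 rose and 0 fell, with a median of 0.17. They were the metalloproteinases Mmp19 (0.95 ± 0.23), Mmp13 (0.85 ± 0.24) and Mmp10 (0.84 ± 0.20), the protease inhibitor Timp1 (0.57 ± 0.16) and the fibrillar collagens Col3a1 (0.55 ± 0.13) and Col1a1 (0.44 ± 0.11). Col1a1 stood at -1.94, -1.80, -1.56, -1.74 and -1.65 in the high-dose animals and -2.16, -1.99, -2.08, -2.32 and -2.35 in the low-dose animals with controls at -2.29 ± 0.18. The low dose was within the control range or close to it and the high dose was above all low-dose animals. In the list of profibrotic and BMP signalling 3 of 34 rose and 5 fell, with a median of -0.17. The matrix protein gene Tgfbi (0.67 ± 0.13), the activin subunit gene Inhba (0.67 ± 0.16) and the activin antagonist gene Fst (0.60 ± 0.16) rose without overlap. For Fst the high-dose mean of -1.32 was near the controls (-1.45 ± 0.31), and the low-dose mean of -1.92 lay below them. Fst kept its call in 3 of 10 fits with an animal left out (largest adjusted p = 0.138 by limma without high animal 5). The BMP receptor Bmpr2 (-0.49 ± 0.12), the co-receptor Tgfbr3 (-0.64 ± 0.14), the inhibitor Smad6 (-0.72 ± 0.20), the matricellular gene Ccn2 (-0.60 ± 0.14) and the growth factor Fgf7 (-0.41 ± 0.10) fell.

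Some genes of the alveolar wall fell at the high dose. Of 32 endothelial genes 3 fell and 0 rose, against 1.13% and 2.65% of all features, with a median of -0.25. Esm1, an endothelial proteoglycan, was 2.66-fold lower (95% interval 1.75 to 4.03, adjusted p = 0.0109), at -0.26, 0.51, -0.17, 0.25 and 0.056 in the high-dose animals and 1.54, 1.23, 1.66, 2.66 and 0.35 in the low-dose animals, with controls at 2.48 ± 0.17. Low animal 4 was at the control level and low animal 5 was inside the high-dose range. Flt1, a VEGF receptor, fell by 0.51 ± 0.14 and Egfl7 by 0.44 ± 0.11, and both lost their call without single animals (largest adjusted p = 0.158 without high animal 5 and adjusted p = 0.0868 without low animal 4). Outside the list, the caveolar coat gene Cavin2 was 1.85-fold lower (95% interval 1.48 to 2.32, adjusted p = 0.00563), the ephrin gene Efnb2 1.74-fold lower (95% interval 1.41 to 2.16, adjusted p = 0.00669) and the lymphatic growth factor gene Vegfd 1.75-fold lower (95% interval 1.37 to 2.24, adjusted p = 0.012). The second Efnb2 probe changed by -0.22, and the mean over both by -0.51. Cavin2 stood at 1.92, 2.31, 1.53, 2.28 and 1.67 in the high-dose animals and 2.81, 2.40, 2.93, 3.23 and 2.78 in the low-dose animals and did not overlap. Of 16 genes of flat alveolar type 1 cells 2 fell, Limch1 (-0.52 ± 0.099) and the caveolin gene Cav1 (-0.57 ± 0.13), with a median of -0.24. None of 20 genes of surfactant-making type 2 cells was called by limma, and their median was 0.11, or -0.23 with scale normalisation between arrays.

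Some fibroblast markers also fell. Of 27 genes of fibroblasts, pericytes and smooth muscle 3 fell and 0 rose, against 1.13% and 2.65% of all features, with a median of -0.27. Tcf21, the transcription factor of alveolar fibroblasts, changed by -0.73 ± 0.15, at 3.44, 3.38, 3.21, 3.77 and 3.67 in the high-dose animals and 4.23, 3.90, 4.58, 4.64 and 3.76 in the low-dose animals, the methyltransferase gene Inmt by -0.64 ± 0.12 and the receptor gene Pdgfra by -0.46 ± 0.13. Every control of Tcf21, at 4.91 ± 0.14 on average, was above every exposed animal. Pdgfra kept its call in 3 of the 10 fits with an animal left out (largest adjusted p = 0.158 by limma without low animal 4). The matrix genes Ogn (-0.91 ± 0.21) and Ntn4 (-0.99 ± 0.26) also fell. With array column as a term the change of Ntn4 was -0.48 (unadjusted p = 0.0959 by limma). In mesothelial genes, which mark the pleura, the median of 12 was -0.44, and the median step with Mitsui was -0.42. The list mean relative to control overlapped between groups. It was -0.79 to 0.14 in high-dose, -0.52 to 0.28 in low-dose and -0.48 to 0.39 in control animals. Msln fell by 0.88 ± 0.24. Its doses barely missed an overlap, with high animal 1 at 0.195 and low animal 5 at 0.196, and controls stood at -0.001 ± 0.52. Msln kept its call in 3 of the 10 fits with an animal left out (largest adjusted p = 0.1235 by limma without high animal 3). The only member that rose was Krt14, which is also a basal cell keratin. Of the other pleural markers Upk3b (-0.46 ± 0.25) and Wt1 (-0.12 ± 0.33) were not called.

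Further falls were seen in single genes of the club cell and xenobiotic lists and in some genes outside the lists. Aldh1a1 was the 1 of 11 club cell genes that fell (-0.66 ± 0.17) and Cyp4b1 the 1 of 15 xenobiotic-metabolising genes (-0.65 ± 0.16). The share of all features that fell was 1.13%. Changes of club cell genes were positive in 5 of 11, and the list mean relative to control was -0.057 at the high and -0.039 at the low dose. Of 17 cilia genes 0 were called by limma, with a median of -0.28. Their list mean was 0.020 at the high and 0.26 at the low dose, and single controls ran from -0.28 to 0.40. The lipid droplet gene Hilpda changed by -0.83 ± 0.16, Ndrg2 by -0.86 ± 0.17, Bex4 by -1.12 ± 0.25 and Agrp by -0.80 ± 0.23. Hilpda and Ndrg2 did not overlap between doses, and Hilpda stood at 0.84, 1.20, 0.77, 1.28 and 0.58 in the high-dose animals and 2.12, 1.46, 1.54, 1.84 and 1.85 in the low-dose animals. Agrp lost its call in most fits with an animal left out (largest adjusted p = 0.151 without high animal 5).

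Fabp1, the fatty acid carrier of liver and gut, had the largest fall, 4.73-fold lower (95% interval 2.18 to 10.2, adjusted p = 0.0219). It stood at 2.54, 3.52, 2.15, 2.78 and 3.93 in the high-dose animals and 4.85, 3.51, 5.54, 7.26 and 4.97 in the low-dose animals, with controls at 4.51 ± 0.12. Low animal 4 was far above all others, 4 of 5 low-dose animals were above the controls and all high-dose animals below them. Fabp1 lost its call without single animals (largest adjusted p = 0.0816 without low animal 4). It belongs to a list of markers of other organs, of which 9 of 17 were measured and 1 was called. The mean of that list was -0.20 to 1.53 relative to control in low-dose and -0.71 to 0.50 in high-dose animals, highest in low animals 3 and 4. The liver genes Alb, Apoa1 and Serpina1a changed by -1.27 ± 0.90, -1.07 ± 0.51 and -1.69 ± 0.60, none called, and were also highest in low animal 4. The part of these markers in the change of Fabp1 was not tested.

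Gm15772, the second largest fall, had 2 levels in the study as a whole. It stood at -2.01, -2.37, -2.08, -3.09 and -3.32 in the high-dose animals and 0.10, 0.066, -0.029, -0.096 and -1.83 in the low-dose animals, and the controls ran from -3.07 to 0.13. Control animals were thus at both levels, 4 of 5 low-dose animals at the upper one, and low animal 5 and all high-dose animals at the lower one.

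Most of the remaining lists held no calls. None of 20 cardiac muscle genes, 8 red blood cell genes, 25 genes of cholesterol and fatty acid synthesis and 29 respiratory chain subunits was called by limma, with medians of -0.13, -0.039, 0.098 and 0.053. The cardiac median was -0.45 with array column as a term, and the mean of that list was -1.37 to -0.025 relative to control in high-dose, -1.33 to 0.15 in low-dose and -0.97 to 0.73 in control animals. Of 16 circadian clock genes 1 rose, Nfil3 (0.37 ± 0.098). Of 13 reference housekeeping genes 2 rose, Gusb, given above, and Pgk1 (0.23 ± 0.066, adjusted p = 0.0497 by limma). That share was above the 3.78% called over all features, and 10 of the 13 changes were positive.

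The step from the low to the high dose was set against the same step of Mitsui XNRi-7, with 5 animals in each of its groups. The difference of the steps was called in 8 features (0.0349%), 7 of them with a symbol, and 2921 (12.7%) passed an unadjusted p under 0.05. The Mitsui step alone called 0 features (0%) by limma, with 1245 (5.42%) at an unadjusted p under 0.05. Of the 7, 3 belong to the endoplasmic reticulum stress list. Hspa5 changed by 0.37 ± 0.074 with NM-401 and by -0.22 ± 0.074 with Mitsui, a difference of 0.60 (adjusted p = 0.0394). Manf changed by 0.47 ± 0.081 and -0.23 ± 0.081, a difference of 0.70 (adjusted p = 0.0329 by limma). The chaperone gene Dnajb9 changed by 0.20 ± 0.068 and -0.32 ± 0.068, a difference of 0.53 (adjusted p = 0.0394 by limma). The NM-401 change of Dnajb9 was itself not called (adjusted p = 0.0903 by limma). Its NM-401 means, 1.11 at the high and 0.91 at the low dose, lay below the control mean of 1.22. For Hspa5 the group means were 0.18 and 0.55 at the low and high dose of NM-401, against 0.58 and 0.36 with Mitsui, so the low dose of Mitsui had a mean close to the high dose of NM-401. Anxa4, an annexin of epithelial membranes, differed by 0.91, with changes of 0.80 ± 0.12 and -0.11 ± 0.12. Its NM-401 values were 1.58, 1.16, 0.97, 1.01 and 1.21 in the high-dose animals and 0.37, 0.50, 0.52, 0.20 and 0.33 in the low-dose animals, without overlap, and the low dose was around the control level of 0.29 ± 0.089. The differences of the kinase gene Tnk1 (-0.85) and of Dock6, an activator of small GTPases (-0.69), and of Gm15772 (-4.36) ran the other way. A second Tnk1 probe changed by -0.048 with NM-401, against -0.34 for the probe used. The differences for the leading macrophage genes were not called: for Gpnmb the steps were 1.72 ± 0.35 and 0.51 ± 0.35 (adjusted p of the difference = 0.294 by limma) and for Slc11a1 1.35 ± 0.21 and 0.32 ± 0.21 (adjusted p = 0.149). The count of 8 was unstable, from 1 without low animal 1, and without several others in turn, to 197 without Mitsui high animal 5. Without high animal 2 it was also 1, with 0 positive differences, so Anxa4, Manf, Hspa5 and Dnajb9 were not called there.

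**Figure D4:**
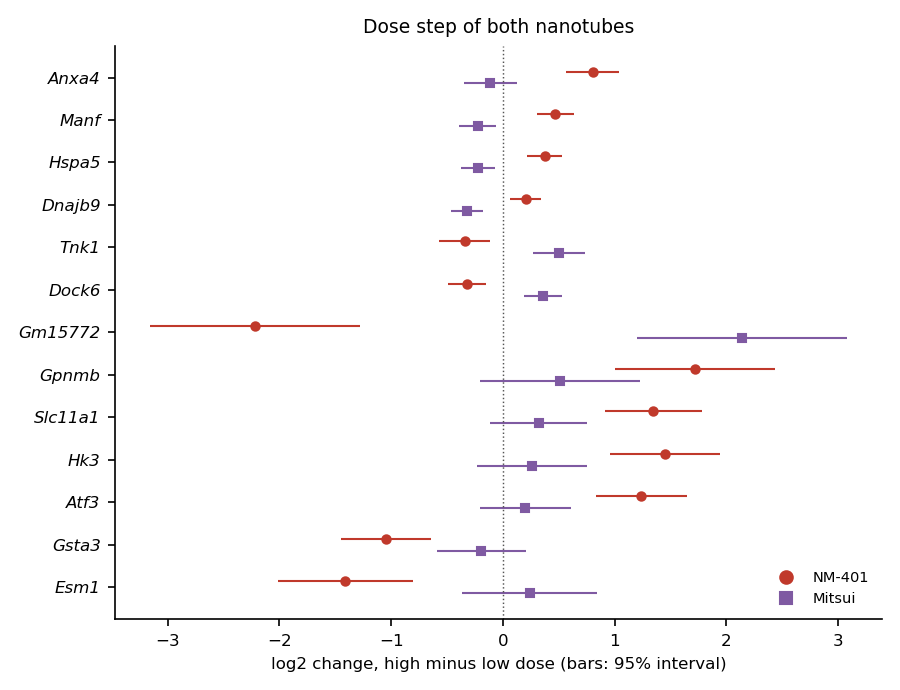
Change from low to high dose (log2, x axis) for 13 genes with NM-401 (circles) and Mitsui XNRi-7 (squares), with bars for the 95% interval of the fit. The 7 genes at the top have steps that differ between the materials at an adjusted p under 0.05, and the 6 below do not.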

How the data were processed

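Lung RNA of 25 animals was measured on 26 Agilent 2-colour arrays on 4 slides. A Mitsui low animal lay on 2 arrays, which were averaged. Per the file headers, the scanner tables give each spot's median intensity and that of its local background, not yet subtracted. Agilent Feature Extraction 11.0.1.1 wrote log10 ratios into the same deposited tables, with background and dyes already corrected. Deposited 0 or 1 columns of another kind flag outliers and spots well above background. The authors also deposited normalised log2 ratios, by a method not given in the sources used here.

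Median intensities were corrected with limma 3.58.1 (R 4.3.3) by normexp (offset 50), and log2 ratios were loess-normalised within arrays, control spots having weight 0. Outlier spots (0.461%) were dropped. A probe stayed in if 4 or more animals of any group had Cy5 well above background (30466 of 55681). Each gene was read from its kept probe of highest mean intensity, giving 22950 features, 14838 of them with a symbol. Symbols came from RefSeq accessions, and 28446 probes had none. Of 19 named genes with several kept probes, 0 had probes of opposite sign.

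The limma model had 1 mean for each of the 5 groups of the study, with 20 residual degrees of freedom and a prior of 3.76. Features called had a Benjamini-Hochberg adjusted p under 0.05 over all features. Changes are high minus low with standard errors, n = 5 per group. The difference of the NM-401 and Mitsui steps came from the same model. The procedure was tested on simulated data. Promoters were matched by symbol.

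Named genes are the 15 largest called rises and the 15 largest called falls, for each list up to 3 called members each way with the smallest p (or the smallest p where none was called), and up to 5 called step differences each way. Other list members are named with their call, and 2 genes that the rule picked are not reported here. The members and the lists were chosen with earlier results of these data known. Alternatives covered background, normalisation, filter, probe choice, animals fitted, slide, column and replicate blocks, the variance model and leaving out animals.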

Additional observations from a re-analysis of the deposited data

Results flagged for a closer look

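Among 280 sets of 5 animals looked at, for the named genes and the list means at each dose, 11 (3.93%) held an animal far from the other 4 by Dixon's criterion at 95%. Chance gives about 1 in 20, and no cause was tested. High animal 2, in which both Xist probes were not well above background, was the far one 3 times, as the highest of its group for Krt14 (2.16, next 0.27), Serpinb5 (3.33, next 1.52) and Krt5 (2.72, next 2.00). High animal 4 was highest for Prdx6 (2.83) and Egfl7 (4.71), high animal 3 for Tnf (0.589) and high animal 1 for Pgk1 (-2.45). Low animal 5 was lowest for Gm15772 (-1.83, with the other low-dose animals at -0.096 to 0.10). Of the list means relative to control, low animal 4 was lowest for neutrophil genes (0.044), low animal 1 for red blood cell genes (-1.28) and low animal 1 for endoplasmic reticulum stress genes (-0.108).

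The step from low to high dose differed between NM-401 and Mitsui for 7 named genes by limma's test of the difference itself. The differences, NM-401 minus Mitsui, were 0.914 for Anxa4, 0.696 for Manf, 0.597 for Hspa5, 0.526 for Dnajb9, -4.36 for Gm15772, -0.846 for Tnk1 and -0.688 for Dock6.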

How the results depend on the processing

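With array column as a block 0 features were called (3309 at an unadjusted p under 0.05). All 868 had the same sign there, in the animals from which they were chosen. Within column 2, a comparison added after the data were seen whose 3 animals also chose the calls, 98.7% of the 868 kept their direction, with only 1 low-dose animal. Fitting only the 10 NM-401 animals also gave 0 calls (3705 at an unadjusted p under 0.05), and median centring in place of loess gave 8, all higher. That setting moved the median of all features to 0.30 and the median standard error to 0.309. Relative to this shift all 92 named called genes kept their sign. In absolute terms 746 of the 868 kept their sign, and among named genes it turned Rad50 (0.065), Prdx6 (0.18), Egfl7 (0.094), Dock6 (0.13) and the uncalled Hbb-bt (0.33). Dmbt1 turned with Feature Extraction ratios (-0.068) and Gp2 within slide 3 (-0.52). Slide as a fixed block gave 1552 calls and as a random block 1497. The other settings that kept all animals called 659 to 1189, and leaving out 1 animal 182 to 1229, with 233 without low animal 1, 182 without low animal 4, 303 without high animal 3 and 206 without high animal 5. Higher changes were 70% of calls, against 58.9% with the authors' deposited ratios, 57.7% with scale normalisation and 58% with slide as a fixed block. Relative to the median of all features, the list medians of B and plasma cell, neutrophil, complement, MHC class II, alveolar type 2, DNA repair, red blood cell, immediate early and clock genes changed sign in at least 1 of 7 settings.

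The difference of the NM-401 and Mitsui steps called 8 features, but 0 with median centring (330 at an unadjusted p under 0.05), 16 with Feature Extraction ratios, 14 with the authors' ratios, 2 with scale normalisation, 3 without the filter, 118 and 113 with slide as a fixed and a random block, 4 with the column block, 4 with the trend and robust variance model, and 1 to 197 with an animal left out.

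With the replicate block, which takes the animal number as a pair across groups, 918 features were called between doses, 790 of them shared with the 868, and 1 for the step difference. The numbers do not pair the animals: correlations of same-numbered deviations were -0.044 to 0.27, and 0 of 5 numbers matched best. Mean signals in place of median signals were not run.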
